A study of Mus musculus with 6 samples.

Results

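The 8 genes described here encode 3 small families of stress proteins in mouse NIH3T3 fibroblasts, the Normal cells of the study: Gadd45a, Gadd45b and Gadd45g, the sestrins Sesn1, Sesn2 and Sesn3, and the REDD genes Ddit4 (REDD1) and Ddit4l (REDD2). They are 8 of 16797 genes measured on 6 Affymetrix gene arrays of total RNA. They were chosen by family name, from genes whose values with and without forskolin (FSK) were already known, and each had 1 probe set that the annotation pairs with that gene alone. Their differences between the groups are therefore given as a description and not as the outcome of a test. FSK activates adenylate cyclase, raises cAMP and so activates protein kinase A (PKA). In both groups, NIH3T3 cells, an immortalized line, were plated in 25 mM glucose and moved after 16 h to medium with 1 mM glucose, in which they grew for 72 h. The 3 NF arrays are of cells that received 10 μM FSK once at 24 h and once more at 48 h, and the 3 N arrays are of cells without FSK, for which the study's legends name DMSO as the vehicle. The labels call the arrays of a group biological replicates. The RNA was taken at 72 h, so the NF values were read a day after the last dose. The study reports that the glucose of the medium was completely depleted by the time of harvest, whether or not FSK was given. Both groups are therefore of cells starved of glucose, and N is not a baseline of cells with glucose left.

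GADD45 proteins are small proteins without enzyme activity that rise in cells under stress. They bind and activate the kinase MAP3K4, upstream of p38 and JNK, and they also bind PCNA and the CDK1 and cyclin B1 complex, which slows entry into mitosis. Sestrins restrain mTORC1, the kinase complex that couples nutrients to growth. They do so through GATOR2, to which SESN2 binds as a sensor of leucine, and they also act with AMPK and with the antioxidant pathway of KEAP1 and NRF2. REDD1 restrains mTORC1 by another route, through the TSC1 and TSC2 complex. The genes are known targets of stress factors that differ between members: p53 for Gadd45a, Sesn1 and Sesn2, ATF4 for Sesn2, Ddit4 and Gadd45a, FOXO factors for Sesn1, Sesn3 and Gadd45a, HIF-1 for Ddit4, and NF-κB for Gadd45b.

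Values are log2 expression as the authors computed them with RMA, and differences are NF minus N. The genes of fibroblasts were present in the cells, with 8 of 8 markers at 5.43 or above on every array. The median of the mean levels of the probe sets with 1 gene symbol, 3.7, is here called the dim bound. Below it on every array lay 7 of 9 markers of epithelial, endothelial and immune cells. The exceptions were the keratin Krt14, at 4.48 to 5.84, and the cadherin Cdh1, at 3.20 to 4.25. The fibroblast markers averaged 9.17 to 9.76 on the N arrays and 9.79 to 10.03 on the NF arrays, with 1 of the 8, the collagen gene Col3a1, higher in NF by 1.33 (limma adjusted p = 0.0157), and their part in the results was not tested. N replicate 1 stood apart from the other arrays. Its values had an SD of 2.42, against 2.58 to 2.62 on the others, and among probe sets with a mean of 5 to 8 it lay, at the median, at -0.493 relative to the average of its fellow N arrays, N replicates 2 and 3 at 0.133 and 0.359 relative to theirs, and the NF arrays between -0.0529 and 0.036 relative to the other NF arrays. The differences of the 8 genes are therefore also given without it, and its part in them was not tested otherwise. Levels of different genes are not compared, since each probe set has its own brightness.

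Gadd45a, the member induced by DNA damage, had its lower values in FSK-treated cells. Its log2 expression was 8.84, 8.92 and 8.96 in N replicates 1, 2 and 3, and 7.13, 8.09 and 7.29 in the NF replicates. The N arrays lay within 0.12 of each other and the NF arrays within 0.95, with NF replicate 2 closest to N, and a gap of 0.76 separated the groups. The N arrays averaged 8.91 ± 0.06 and the NF arrays 7.50 ± 0.51 (SD, n = 3 each), a log2 difference of -1.41 with a standard error of 0.24, or 2.65-fold lower in NF. It was -1.44 without N replicate 1 and ranged from -1.70 to -1.22 as each array was left out. Of all genes, 1.05% had a larger difference in size. In RNA of a whole culture, less RNA per cell and fewer cells with the RNA cannot be told apart. The 250 bases before the annotated start of Gadd45a (RefSeq, GRCm38.p6, chr6:67037408-67037657, minus strand) are shown to place the sequence motifs described further on. They are written 5′ to 3′, with every match to a searched motif in capitals:
Gadd45a: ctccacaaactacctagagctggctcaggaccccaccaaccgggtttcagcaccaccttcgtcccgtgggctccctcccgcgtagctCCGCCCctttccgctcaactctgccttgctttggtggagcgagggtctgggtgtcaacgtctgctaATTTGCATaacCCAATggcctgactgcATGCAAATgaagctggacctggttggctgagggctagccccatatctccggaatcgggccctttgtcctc

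Gadd45g, a member known from cytokine responses and differentiation, had its higher values in FSK-treated cells. Its log2 expression was 4.0, 4.22 and 3.9 in the N replicates and 5.57, 5.15 and 5.68 in the NF replicates. All 3 NF arrays lay above all 3 N arrays, with a gap of 0.93, the widest among the 8 genes, and NF replicate 2 was again the NF array closest to N. The N arrays averaged 4.04 ± 0.17, close to the dim bound, and the NF arrays 5.47 ± 0.28 (SD, n = 3 each). The log2 difference was 1.42 with a standard error of 0.17, or 2.68-fold, and it was 1.40 without N replicate 1. The bases before the start of Gadd45g (chr13:51846425-51846674, plus strand), written in the same way, hold one stretch where 2 motifs overlap:
Gadd45g: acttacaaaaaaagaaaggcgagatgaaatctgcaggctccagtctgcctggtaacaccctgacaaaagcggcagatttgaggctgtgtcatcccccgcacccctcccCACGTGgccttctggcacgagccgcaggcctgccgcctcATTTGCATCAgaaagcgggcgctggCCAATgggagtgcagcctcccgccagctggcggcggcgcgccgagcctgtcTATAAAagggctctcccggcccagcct

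Gadd45b, first known as an early response gene of myeloid differentiation, had groups that overlapped. Its log2 expression was 4.21, 5.96 and 5.60 in the N replicates and 6.46, 6.12 and 5.83 in the NF replicates. N replicate 1 was far below the other 5 arrays, and N replicate 2 lay above NF replicate 3. The log2 difference was 0.88 with a standard error of 0.42, and it was 0.35 without N replicate 1. Of the 3 members of the family, 1 had all NF values below all N values, where 9.7% of all genes did. In 1 they were all above, where 10.5% of all genes did, and in 1 the groups overlapped. Nothing is read from these counts either.

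**Figure D1:**
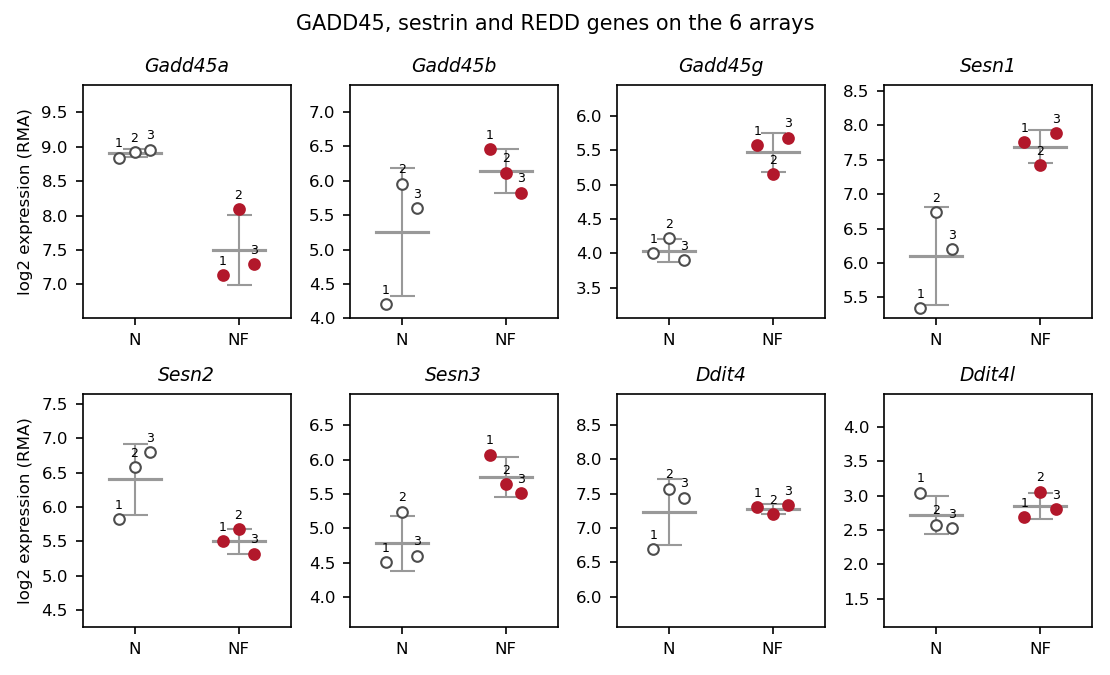
Log2 expression (vertical axis, 3.4 log2 units in every panel) of each gene on the 3 N arrays (open) and the 3 NF arrays (filled), with the replicate number beside each point and grey bars at the group mean ± SD (n = 3). The groups are apart for Gadd45a, Gadd45g, Sesn1, Sesn2 and Sesn3 and overlap for Gadd45b, Ddit4 and Ddit4l, and N replicate 1 is the lowest of the 6 points for Gadd45b, Sesn1, Sesn3 and Ddit4.

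Sesn1 had the largest difference of the 8 genes. Its log2 expression was 5.34, 6.74 and 6.20 in the N replicates and 7.76, 7.42 and 7.89 in the NF replicates. The N arrays were spread over 1.40, with N replicate 1 lowest, the NF arrays over 0.47, and the groups were 0.68 apart. The N arrays averaged 6.10 ± 0.71 and the NF arrays 7.69 ± 0.24 (SD, n = 3 each), a log2 difference of 1.59 with a standard error of 0.33, or 3.02-fold. Without N replicate 1 the difference was 1.22, and without N replicate 2 it was 1.92. The probe set is annotated with both RefSeq transcripts of Sesn1, which have separate starts on chromosome 10, so the array does not tell which start the RNA came from. The bases before the first start (chr10:41810324-41810573) and the second (chr10:41887189-41887438), both on the plus strand, are shown since they differ in the motifs they hold:
Sesn1, first start: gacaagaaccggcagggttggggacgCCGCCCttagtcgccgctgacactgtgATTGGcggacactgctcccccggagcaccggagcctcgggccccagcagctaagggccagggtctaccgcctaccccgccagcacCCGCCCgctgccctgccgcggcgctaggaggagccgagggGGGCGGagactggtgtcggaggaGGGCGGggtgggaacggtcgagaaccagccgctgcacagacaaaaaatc
Sesn1, second start: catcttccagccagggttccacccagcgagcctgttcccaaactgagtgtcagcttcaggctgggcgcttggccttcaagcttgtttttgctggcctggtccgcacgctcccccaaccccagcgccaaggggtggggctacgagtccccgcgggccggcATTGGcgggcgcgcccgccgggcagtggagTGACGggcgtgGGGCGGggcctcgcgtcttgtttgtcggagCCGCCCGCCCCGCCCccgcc

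Sesn2 differed in the opposite direction to Sesn1. Its log2 expression was 5.82, 6.58 and 6.80 in the N replicates and 5.50, 5.68 and 5.32 in the NF replicates. The groups did not overlap, but N replicate 1 and NF replicate 2 were only 0.14 apart. The N arrays averaged 6.40 ± 0.52 and the NF arrays 5.50 ± 0.18 (SD, n = 3 each), a log2 difference of -0.90 with a standard error of 0.25, or 1.87-fold lower in NF. N replicate 1 was the N array nearest to the NF arrays, and without it the difference was -1.19.

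Sesn3 had the same direction as Sesn1. Its log2 expression was 4.51, 5.24 and 4.60 in the N replicates and 6.07, 5.64 and 5.51 in the NF replicates, with the groups 0.27 apart. The log2 difference was 0.96 with a standard error of 0.23, or 1.94-fold, and it was 0.82 without N replicate 1. Of the 3 sestrins, 2 had all NF values above all N values, where 10.5% of all genes did. Sesn2 had them all below, where 9.7% of all genes did. Nothing is read from these counts, since the genes were chosen with their values known.

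The REDD genes had overlapping groups. The log2 expression of Ddit4 was 6.69, 7.57 and 7.44 in the N replicates and 7.30, 7.20 and 7.33 in the NF replicates. The NF arrays lay within 0.13 of each other and between N replicate 1 and the other N arrays. The log2 difference was 0.05 with a standard error of 0.23, and its sign depended on N replicate 1, without which it was -0.23. After a further quantile normalization it was -0.06. Ddit4l, which encodes a relative of REDD1 that also restrains mTORC1, was below the dim bound on every array, at 3.04, 2.58 and 2.53 in N and 2.69, 3.06 and 2.80 in NF, and its values give no level to compare.

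**Figure D2:**
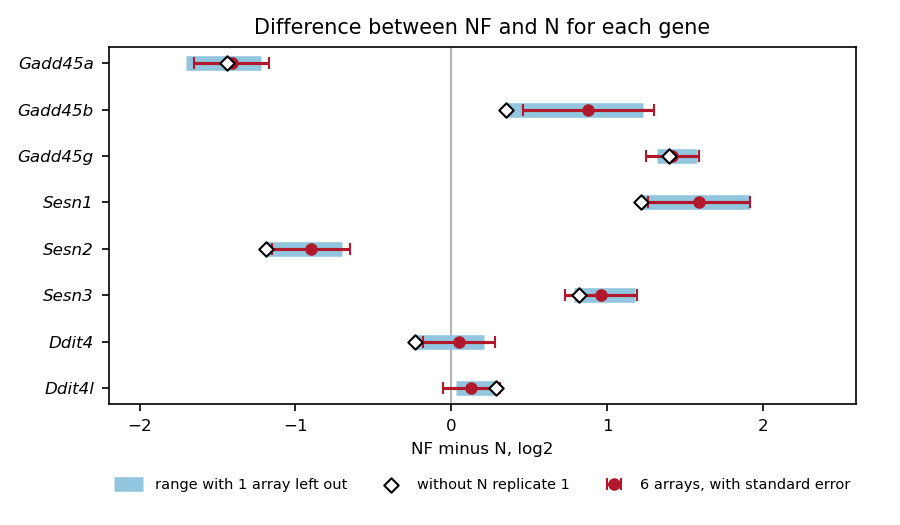
NF minus N (horizontal axis, log2) for each gene, with the difference over the 6 arrays and its standard error from limma (points and bars), the range as each array was left out in turn (blue) and the value without N replicate 1 (diamonds). Gadd45a and Sesn2 lie below 0, Gadd45b, Gadd45g, Sesn1 and Sesn3 above it whichever array was left out, and Ddit4 crosses 0, from -0.23 to 0.21.

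Over the 8 genes, 3 had all NF values above all N values, where 10.5% of all genes did, and 2 had them all below, where 9.70% did. In the limma fit over all 18197 probe sets, at an adjusted p under 0.05, Gadd45g and Sesn1 were among the 1.83% of genes called higher in NF, and Gadd45a among the 0.720% called lower. Since the genes were taken with these values known, nothing is read from those counts. The median difference of the 8 genes was 0.51 and that of all genes -0.0265. Without N replicate 1 the difference of Gadd45b was 0.35 in place of 0.88, and that of Ddit4 was -0.23 in place of 0.05.

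NF replicate 2 was the NF array nearest to the N arrays for 4 of the 5 genes whose groups did not overlap, Gadd45a, Gadd45g, Sesn1 and Sesn2. For Sesn3 it was NF replicate 3, at 5.51 against 5.64 for NF replicate 2. Relative to its mean over the 6 arrays, Gadd45a lay at -0.12 in NF replicate 2 and at -1.07 and -0.92 in NF replicates 1 and 3. Gadd45g lay at 0.40 in NF replicate 2, against 0.82 and 0.92. The genes with profiles most like those of the 3 members that differed by 1 or more were found by Pearson correlation over the 6 arrays, among 8268 genes at or above the dim bound. The points of such a correlation share their group and array, and it is given as a description. Closest to Gadd45a were Uqcrq (r = 0.9982), a subunit of respiratory complex III, Pck2 (r = 0.9941), the mitochondrial PEP carboxykinase, and Lbh (r = 0.9929), a transcription cofactor. Closest to Gadd45g were the glycosyltransferase gene B3galnt1 (r = 0.9994), Pik3r3 (r = 0.9977), a regulatory subunit of PI3-kinase, and Rnaseh2c (r = 0.9973), a subunit of ribonuclease H2. Closest to Sesn1 were the ubiquitin ligase gene Dtx3l (r = 0.9997), the sulfotransferase gene Chst11 (r = 0.9996) and Cpt1a (r = 0.9985), which admits fatty acids to mitochondria. Their log2 differences were -0.57, -1.57 and -1.30, then 1.04, 2.26 and 1.01, then 0.72, 1.32 and 1.33.

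The genes around these families were compared through 9 lists, which hold 144 measured genes, none of them one of the 8. Of the 144, 6 rose and 13 fell in NF (limma, adjusted p under 0.05 over all probe sets), where 1.83% of all genes were called higher and 0.720% lower. The lists were written with earlier results of these data known, so their counts are a description and not a test of enrichment. Genes regulated by the stress factors that are known to act on the 8 genes came first. Of 27 targets of ATF4 and CHOP, the factors of amino acid and ER stress, 11 fell, 0 rose (limma, 0 higher at an unadjusted p under 0.05, and 0 by the methods' t-test) and 16 did not pass, with a median difference of -1.37. Atf3, a stress-induced repressor, had a log2 expression of 9.25, 9.17 and 9.97 in N and 5.61, 7.14 and 5.76 in NF, a log2 difference of -3.29 (standard error 0.40, limma adjusted p = 0.0113). Nupr1, a stress-induced nuclear protein, fell by 1.37 on the log2 scale (limma adjusted p = 0.00925), Herpud1, which serves the degradation of ER proteins, fell by 2.01 (0.0132) and Cth, which makes cysteine, fell by 2.96 (0.0150). Ddit3, which encodes CHOP, fell by 2.83 (limma adjusted p = 0.0384), and Atf4 itself had a difference of -0.98 (adjusted p = 0.0869). By qPCR, the study reports that FSK lowered almost all chosen genes of ER stress in Normal cells, with Ddit3 and Atf4 among those chosen. It also reports that the spliced form of Xbp1, which depends on ER stress, was detectable only in untreated cells.

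NF replicate 2 was also the NF array nearest to N for these targets. With every gene set against its own mean of all arrays, the ATF4 and CHOP targets averaged -0.10 in NF replicate 2 and -1.12 and -1.03 in NF replicates 1 and 3. They averaged 0.49, 0.61 and 1.14 in N replicates 1, 2 and 3. Ddit3 was at 9.31 in NF replicate 2 and at 7.25 and 7.15 in NF replicates 1 and 3. Of the 8 genes, those named above as ATF4 targets had different profiles. Gadd45a and Sesn2 were lower in every NF array, Sesn2 at -0.45, -0.27 and -0.63 relative to its mean, and Ddit4 was at 0.05, -0.05 and 0.08. Gadd45g and Sesn1, which were higher in NF, were nearest to N in NF replicate 2 too. Of the 3 genes named above for their likeness to Gadd45a, Pck2 is on this list, and Uqcrq and Lbh are not. The part of ATF4 in the differences of the 8 genes was not tested. The number of targets called lower was 21 without N replicate 1, 17 without NF replicate 2, 4 without N replicate 2 and 4 without N replicate 3. It was 0 without NF replicate 1 or NF replicate 3 (limma, where 21 and 20 had an unadjusted p under 0.05), and 3 with the replicate number as a block.

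Of 22 targets of p53, 0 passed limma's test in either direction (5 lower and 0 higher at an unadjusted p under 0.05, 3 and 0 by the methods' t-test), and their median difference was -0.22. The target with the lowest p was Plk2, a kinase of the stress response, at 9.51 ± 0.54 across N and 8.46 ± 0.19 across NF (SD, n = 3 each, limma adjusted p = 0.0913). Mdm2, the ubiquitin ligase of p53, had a difference of 0.08 and Ccng1 one of -0.29. Without N replicate 1, 2 p53 targets were called lower, Plk2 and the polymerase gene Polk, and after quantile normalization 3 were, with the antiproliferative gene Btg2 added. Among 19 targets of FOXO factors 1 rose, Ccng2, an atypical cyclin of resting cells, at 4.85, 5.67 and 5.14 in N and 6.93, 6.31 and 7.05 in NF (log2 difference 1.54, standard error 0.26, limma adjusted p = 0.0290). The other 18 did not pass, and the median of the list was 0.24, or -0.06 without N replicate 1. At an unadjusted p under 0.05, 7 of the 19 were higher and 1 lower by limma, and 4 and 1 by the methods' t-test. Without N replicate 1 the limma counts were 7 and 2, and 2 targets were called higher and 1 lower. Ccng2 lost its call when N replicate 3 or either of NF replicates 1 and 3 was left out, and with the replicate block. The regulator Foxo1 itself was at 5.41 ± 0.27 across N and 5.37 ± 0.43 across NF (SD, n = 3 each). Differences of the p53 relatives Trp63 and Trp73, both below the dim bound, were 0.24 and 0.05, and that of Tfe3, a factor of lysosome genes, was -0.35, none past the test.

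Of 12 targets of HIF-1, which responds to low oxygen, 1 rose and 2 fell. Egln3, a hydroxylase that marks HIF for degradation, rose by 0.87 on the log2 scale (limma adjusted p = 0.0338). Adm, the precursor of adrenomedullin, fell by 1.14 (limma adjusted p = 0.0215) and Ndrg1, a stress-responsive gene, fell by 1.00 (0.0445). The median was 0.42, or 0.13 without N replicate 1, and Hif1a had a difference of 0.32 (adjusted p = 0.343). With N replicate 3 or any 1 NF array left out, and with the replicate block, 0 of the 12 were called by limma (4 to 6 higher and 2 lower by the unadjusted p).

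**Figure D3:**
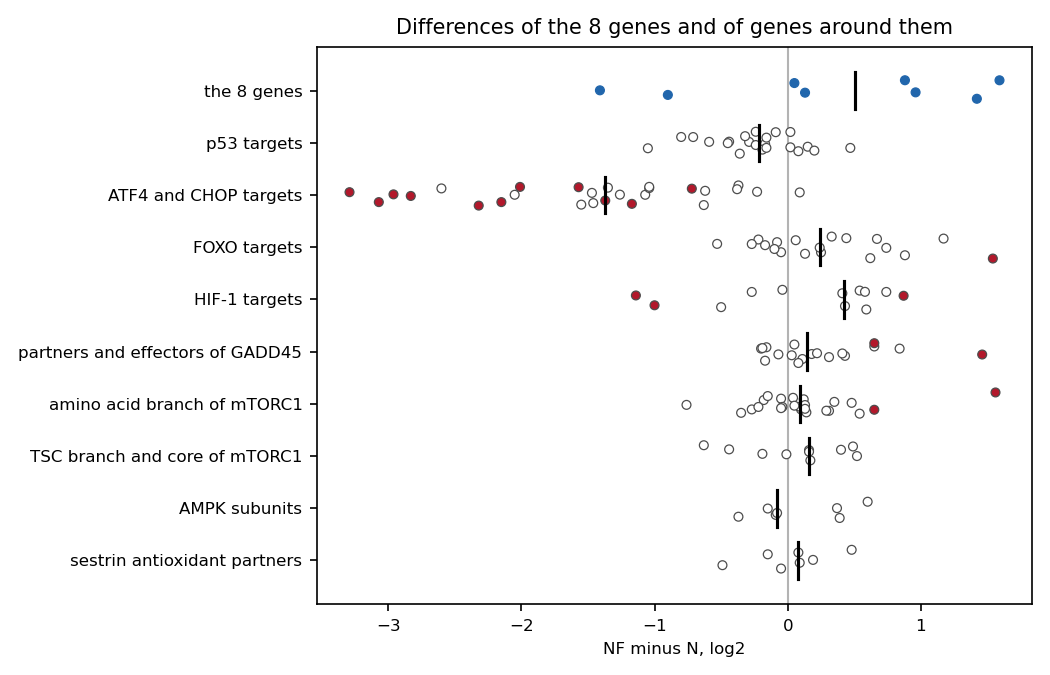
NF minus N (horizontal axis, log2) of the 8 genes (blue) and of the genes of each list, with those called by limma at an adjusted p under 0.05 in red, the others open and a black line at each median. The ATF4 and CHOP targets are spread from -3.29 to 0.09 with a median of -1.37, the p53 targets from -1.05 to 0.47 with 0 called, and the 8 genes lie on both sides of 0.

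Among 18 measured partners and effectors of the GADD45 proteins, 2 rose and 16 did not pass. Cdk1, the mitotic kinase that GADD45 proteins restrain, had a log2 expression of 7.74, 7.97 and 7.83 in N and 9.53, 9.19 and 9.21 in NF, a difference of 1.46 (standard error 0.14, limma adjusted p = 0.00716). Pcna, the sliding clamp of DNA replication, rose by 0.65 (limma adjusted p = 0.0395). For NF against N, the study reports that cell cycle pathways were enriched among its repressed genes. Cdk1 (2.74-fold) and Pcna (1.57-fold) had the opposite direction in the values used here. They are 2 genes of a list of GADD45 partners, called by an adjusted p and not by fold change. They therefore do not test the study's pathway result, and the reason for their direction was not tested. These 18 genes had a median difference of 0.14, or 0.06 without N replicate 1. With NF replicate 1 or NF replicate 3 left out 0 passed (limma, 3 and 2 higher at an unadjusted p under 0.05), and Cdk1 alone passed when N replicate 2, N replicate 3 or NF replicate 2 was left out and with the replicate block.

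Downstream of the sestrins, 2 of 24 genes of the amino acid branch of mTORC1 rose and 22 did not pass. Castor2, a relative of the arginine sensor CASTOR1, had a log2 expression of 4.14, 5.02 and 4.84 in N and 6.22, 6.06 and 6.41 in NF, a difference of 1.56 (standard error 0.23, limma adjusted p = 0.0193). Depdc5, a subunit of the GATOR1 complex that turns mTORC1 off, rose by 0.65 (limma adjusted p = 0.0360), and Mios, a subunit of the GATOR2 complex that sestrins bind, had a difference of -0.76 that did not pass. Both calls were lost with NF replicate 1 or NF replicate 3 left out and with the replicate block (limma, 2 or 3 higher and 1 lower by the unadjusted p), and that of Depdc5 also when N replicate 2, N replicate 3 or NF replicate 2 was left out. Of 10 measured genes of the TSC branch and the core of mTORC1, through which REDD1 acts, 0 passed limma's test (1 higher and 2 lower at an unadjusted p under 0.05, and 0 by the methods' t-test), the lowest p being that of the GTPase gene Rheb at -0.44 (adjusted p = 0.282). Mios and Rheb were each called lower without N replicate 1 and after quantile normalization. Of the 7 AMPK subunits 0 passed (limma, 2 higher and 0 lower unadjusted, 0 higher and 1 lower by the methods' t-test). Of 7 measured antioxidant partners of the sestrins 0 passed (limma, 1 higher and 1 lower unadjusted, the same counts by the methods' t-test), with the autophagy receptor Sqstm1 at -0.49 (adjusted p = 0.162). The medians of these 4 lists, in the order given, were 0.09, 0.16, -0.08 and 0.08 over all arrays and -0.03, -0.03, 0.01 and -0.11 without N replicate 1, so each changed sign with that array.

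All 8 genes had a promoter window in the RefSeq table, which holds 250 bases before and 50 after each start, 9 windows in all with both starts of Sesn1. They were searched on both strands for 7 motifs, and for 2 more (the octamer and the TATA box) added after the sequences had been seen. The full cAMP response element TGACGTCA was in 0 of the 9 windows and in 1.79% of all 32851 windows of the table. Its core TGACG, which the full element contains and which is in 20.8% of all windows, was in 1 of the 9, 61 bases before the second start of Sesn1. The CCAAT box was in 8 of the 9 windows, all but that of Ddit4l, against 37.4% of all windows, and the GC box GGGCGG in 8 of the 9, all but that of Gadd45g, against 35.7%. The 9 windows held 61.0% to 71.0% G and C, where the median of all windows was 52.7%, so their base composition differs from that of the table. An element of ATF4 and CEBP factors, TGATGNAA (3.97% of all windows), was in that of Gadd45g, 101 bases before the start, where it overlaps the octamer. The E-box CACGTG (7.15%) was in Gadd45b and Gadd45g. The FOXO element GTAAACA (3.65%) was in the window of the first start of Sesn1, on the minus strand and just after the start, outside the bases printed. The octamer ATTTGCAT, read by POU factors and in 1.74% of all windows, was in 3 of the 9: once in Gadd45g and Sesn3 and on both strands in Gadd45a, 97 and 70 bases before the start with a CCAAT box between them. The TATA box TATAAA (13.6%) was in Gadd45b, Gadd45g and Ddit4l, in the last after the start. These matches are letters in a window and show nothing of binding in the cells.

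**Figure D4:**
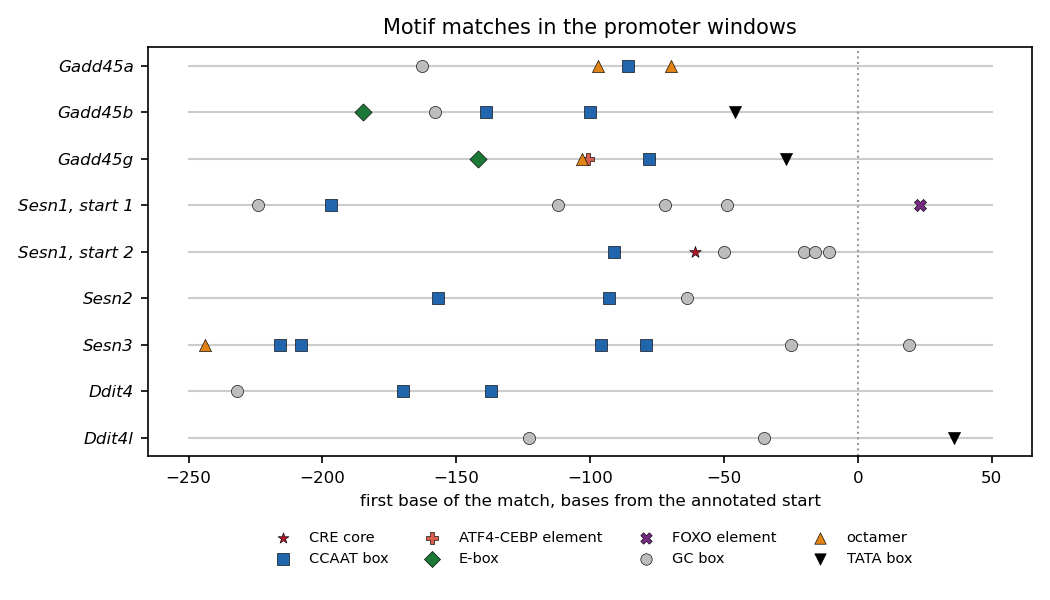
Matches to the searched motifs (symbols) by the distance of their first base from the annotated start (horizontal axis, bases) in the 9 promoter windows (rows). CCAAT boxes are present in every row but that of Ddit4l, the core of the cAMP response element (CRE) only at the second start of Sesn1, and octamers in Gadd45a, Gadd45g and Sesn3.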

How the data were processed

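The 6 Affymetrix gene arrays, 3 for N and 3 for NF, hold RNA of Normal cells. The deposited values are on the log2 scale, which the authors made with RMA in the R/Bioconductor package oligo. The package version, the ENSEMBL release and the arrays normalized together are not given in the sources used here. Of 22035 probe sets, 18197 with 1 gene symbol (16797 genes) were tested. Left out were 1260 that the annotation pairs with several symbols and 2578 that it does not list. Trp53, Foxo3, Tfeb and some list genes, Cdkn1a among them, had no such probe set and are not analysed here.

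Differences between NF and N were fitted by limma 3.58.1 (lmFit and eBayes, R 4.3.3) across all probe sets, with Benjamini-Hochberg adjustment and a threshold of 0.05. A gene with several probe sets was given by the one with the lowest p, as in the study's methods. The members and the lists were chosen with earlier results of these data known, and the lists were written from general knowledge. Besides the 8 genes, the text names up to 4 called genes with the lowest p of each list, or else the 1 with the lowest p, the regulators of the lists and the 3 likest genes of each member that differed by 1 or more. Mdm2, Ccng1, Mios, Polk, Btg2, Krt14 and Cdh1 were named after their values were seen. Alternatives were a replicate block, quantile normalization, median centring, removal of dim probe sets, limma's trend and robust options, the methods' t-test (named there for the study's data in general), the brightest probe set of a gene and leaving out each array. A fit without the pair N replicate 1 and NF replicate 2 was added after seeing the data. The number of arrays limits the precision. The procedure was tested on simulated data, with independent noise for each probe set and no shift of a whole array. That setting does not cover a shift such as that of N replicate 1, so it does not vouch for the counts of calls. Protein identity was not computed, for want of a protein table here.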

Additional observations from a re-analysis of the deposited data

How the results depend on the processing

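Counts of calls depended on the processing. Genes called higher and lower in NF, 307 and 121 with all arrays, were 63 and 17 with the replicate block, 495 and 365 after quantile normalization, 1 and 0 by the methods' t-test (1861 genes at its unadjusted p under 0.05), 541 and 497 with both N replicate 1 and NF replicate 2 removed (chosen after seeing the data), and between 1 and 492 higher and 0 and 430 lower with 1 array left out. Of the 8 genes, chosen with these values known and so not tested by them, 2 were called higher and 1 lower with all arrays, 0 and 0 with the block or by the methods' t-test (5 at an unadjusted p under 0.05 in each), 1 higher with the robust option, 2 lower after quantile normalization and without both arrays, and between 0 and 3 higher and 0 and 2 lower with 1 array left out. Of the genes of the lists, 6 higher and 13 lower with all arrays, 1 and 3 were called with the block, 0 and 0 by the methods' t-test (13 higher and 31 lower at an unadjusted p under 0.05), 27 lower after quantile normalization, 33 lower without both arrays, and between 0 and 7 higher and 0 and 28 lower with 1 array left out. The causes were not tested.

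The labels do not say whether N and NF arrays with the same replicate number belong together. The deviations of same-numbered N and NF arrays correlated at -0.0748, -0.0780 and -0.0736. With so few arrays in each group, these values cannot settle whether the arrays are paired. Ddit4l was left out with the dim probe sets. The choice of probe set does not arise for the 8 genes, which have 1 each.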
